A study of Mus musculus with 6 samples.

Results

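Genes that mark brain endothelial cells, the blood-brain barrier, pericytes and vascular smooth muscle were examined in RNA sequencing of whole mouse cerebellum. The 36 genes were taken by symbol from the 53746 genes of the deposited count table, and each matched 1 row. They are genes known for these roles, and the rule that picks them uses no measured value. The 6 libraries came from mice 2 months old, and 3 were of genotype N153S LSL/LSL, called control mice. The other 3 were N153S LSL/LSL Pcp2-cre animals, called Pcp2-cre mice, and in each genotype mice 1 and 2 were male and mouse 3 was female. All 6 mice were homozygous for a conditional knockin allele of the Sting1 mutant N153S (a form of STING that signals without its ligand) behind a lox-flanked stop cassette. Pcp2-cre drives Cre in Purkinje cells, so the recombination was aimed at neurons and not at vascular cells. The mice were perfused with cold PBS before the cerebellum was taken, and polyadenylated RNA of the whole tissue was sequenced. The comparison of the genotypes asked which vascular transcripts differ when the mutant is switched on in a neighbouring neuron.

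Brain capillaries are lined by endothelial cells that are sealed to each other by tight junctions, take up few vesicles, and move nutrients and drugs through dedicated transporters. Pericytes sit in the same basement membrane as the endothelium and help to keep this barrier closed, while smooth muscle cells wrap the arterioles. Signals from the surrounding tissue, among them Wnt ligands made by glia and neurons, hold endothelial cells in the barrier state, and inflammatory signals add adhesion molecules that bind leukocytes.

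Total counts per library were 8151391, 6809768 and 10178218 in control mice 1 to 3 and 7565899, 8572674 and 6733178 in Pcp2-cre mice 1 to 3. Values per mouse are given below in that order, as CPM, which are counts relative to the library total scaled by edgeR's TMM factors. A floor of 3 counts stands for 0.297 to 0.447 CPM, depending on the library, and covers counting error only. The libraries stood apart in a respect that bears on vessels: the summed CPM of 15 choroid plexus markers was 1677, 2377 and 190 in the control mice and 183, 200 and 294 in the Pcp2-cre mice. Control mice 1 and 2 were thus far above the other 4 libraries, and control mouse 3 lay with the Pcp2-cre mice. Ttr, the marker with the highest mean FPKM over the libraries, was counted 5169, 6896 and 31 times in control and 32, 59 and 415 times in Pcp2-cre mice, although Enpp2 had more counts in every library. None of the 15 was at 0 in all libraries. The choroid plexus has its own fenestrated vessels. Values without control mouse 3 and with a choroid plexus score as a covariate are therefore given where they change whether a named vascular gene passes a threshold. The score largely follows genotype, so with it in the fit the genotype difference rests mainly on control mouse 3. Where a gene does not pass with this covariate, choroid plexus tissue and lost power cannot be told apart. Red cell markers also varied between libraries, with a summed CPM of 16.6, 64.9 and 19.2 in control and 47.3, 31.1 and 8.14 in Pcp2-cre mice. Because whole tissue was sequenced, fewer cells of a type and less RNA per cell cannot be told apart in any value.

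Sting1 itself (ENSMUSG00000024349, chromosome 18) was read beside the genotype labels. It was counted 186, 183 and 264 times in control and 337, 296 and 240 times in Pcp2-cre mice. The mean CPM was 25.5 ± 2.09 (SD, n = 3) in control and 38.0 ± 5.55 (SD, n = 3) in Pcp2-cre mice. On the log2 scale the difference was 0.57 with a standard error of 0.097 (edgeR adjusted p = 0.000359, from its quasi-likelihood test after Benjamini-Hochberg correction). Each Pcp2-cre mouse was above each control mouse in CPM. The log2 fold change was under 0.5 without Pcp2-cre mouse 1 (0.445, edgeR adjusted p = 0.00743) and with limma on FPKM (0.459 and 0.49, adjusted p = 0.365 and 0.379), in a range of adjusted p from 2.09e-09 to 0.379 over 16 alternatives. Microglia also express Sting1, and markers of microglia were higher in Pcp2-cre mice too (below), so the cells behind this RNA difference cannot be told apart in these counts. For the protein, in somewhat younger mice, the paper reports by immunofluorescence that STING was higher in Purkinje cells and not in microglia or other neurons. The tissue label was checked on Purkinje cell markers, of which the most abundant, Pcp2, had a mean FPKM of 552 in control and 395 in Pcp2-cre mice.

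A gene was called when its adjusted p was at most 0.05 and its log2 fold change at least 0.5 in size, the thresholds of the study. Of the 36 genes, 34 had enough counts to be tested among 16961 genes. None of the 34 was called by edgeR's quasi-likelihood test (0 of 34), whereas 3.17% of all tested genes were, 1.37% as higher and 1.79% as lower in Pcp2-cre mice. DESeq2 also called 0 of the vascular genes, and so did limma on the FPKM values. At an adjusted p of at most 0.05 with no limit on the fold change, 3 of 34 passed (8.82%, against 7.74% of all tested genes). Abcg2 and Vtn were higher, where 2.99% of all tested genes passed, and Slc2a1 was lower, where 4.75% did. At an unadjusted p under 0.05 there were 5 of 34 (14.7%, against 18.0%), namely these 3 with Cldn5 and Abcc9. Groups did not overlap in CPM for 6 of 34 (17.6%, against 22.2%), with Abcg2, Vtn, Flt1, Ly6a and Slco1a4 above and Slc2a1 below. These shares lay near those of all tested genes.

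The fold changes were small and bounded. Their median was 0.06 on the log2 scale (0.038 without Pcp2-cre mouse 2 and 0.031 with limma on FPKM with a pseudocount of 1), beside 0.0045 over all tested genes, and they ran from -0.21 for Mfsd2a to 0.48 for Abcg2. In 23 of 34 genes the log2 fold change was above 0, and over all tested genes 51.3% were. The median standard error was 0.103 for the vascular genes and 0.095 for all tested genes. The 95% interval lay within 0.5 log2 units of 0 for 32 of 34 vascular genes (94.1%, against 69.0% of all tested genes). For those 32, a change of the size that the study's threshold requires was outside the interval. The exceptions were Abcg2 and Anpep, the latter with an upper bound of 0.52. When control mouse 3 was left out, the log2 fold changes ran from -0.383 for Slco1c1 to 0.54 for Abcg2. Mfsd2a moved to -0.101 without control mouse 1.

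**Figure D1:**
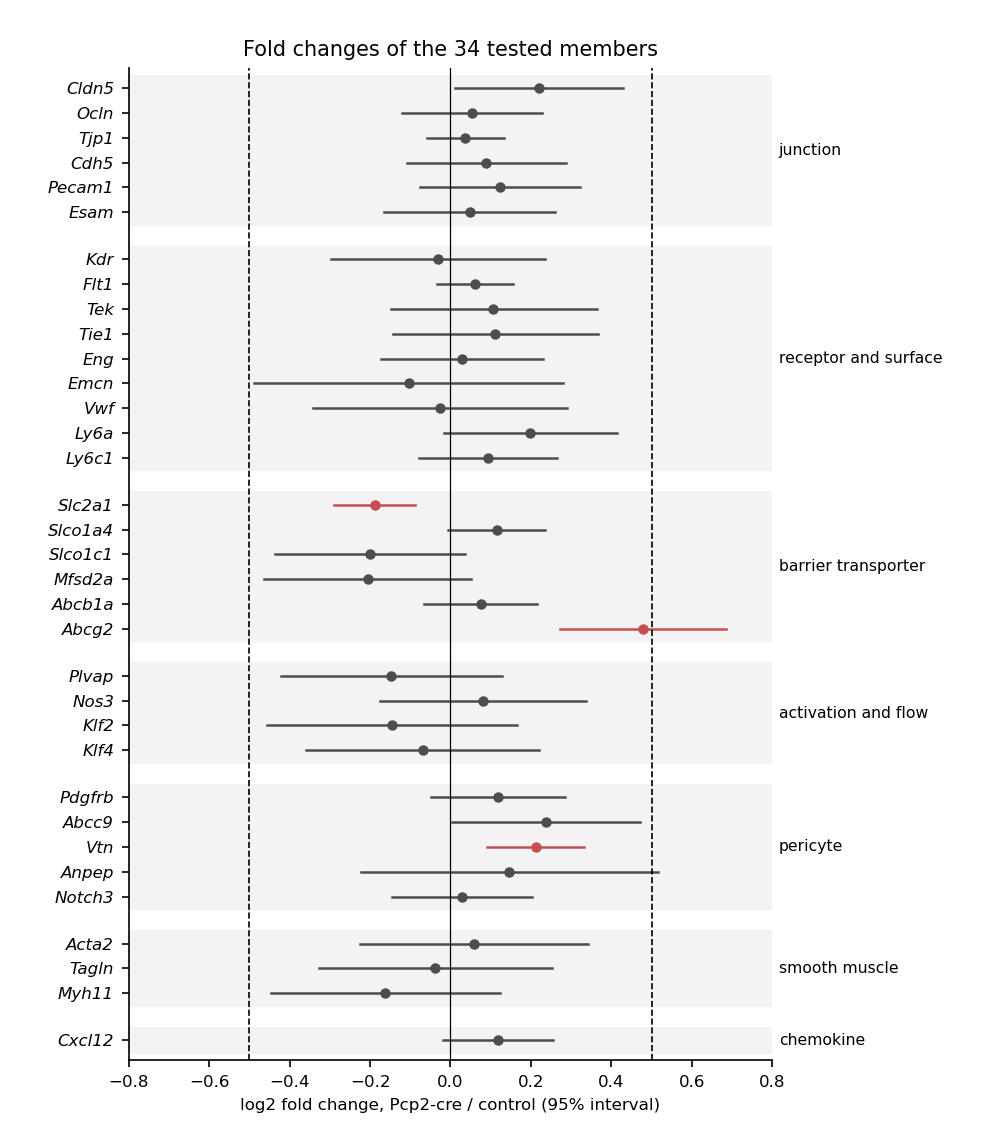
Log2 fold change (Pcp2-cre over control) of the 34 tested vascular genes by role, with 95% intervals as bars, red for an adjusted p of at most 0.05 and dashed lines at 0.5 on either side of 0. Every point lies between -0.21 and 0.48, and the bars of 32 genes stay inside the dashed lines.

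Levels were compared between genes per exon length, in the FPKM values that the authors deposited. In control mice the mean FPKM was 37.0 ± 2.19 (SD, n = 3) for Slc2a1, 34.5 ± 0.673 for Vtn and 33.7 ± 1.82 for Ly6c1. Ly6c1 did not differ from Vtn beyond their spread, and the values of Slc2a1 and Vtn overlapped between mice. Ly6a at 15.2 FPKM, Tjp1 at 15.1, Slco1a4 at 13.7, Cldn5 at 13.3, Slco1c1 at 11.6, Cxcl12 at 10.6 and Flt1 at 10.1 followed, with neighbours in this order within each other's spread. Kdr at 1.71 FPKM, Myh11 at 1.66, Abcc9 at 1.49 and Anpep at 1.28 were the lowest tested genes. In Pcp2-cre mice the order at the top was another, with Vtn at 40.4 ± 2.1, Ly6c1 at 35.4 ± 5.37 and Slc2a1 at 33.0 ± 3.31 FPKM. Sele had 0 counts in all 6 libraries, which is under the floor of 3 counts. Among mice of 1 genotype, the coefficient of variation of CPM had a median of 9.03% in control mice (0.884 to 22.9% over the 34 genes) and 7.61% in Pcp2-cre mice (0.887 to 26.6%). Vwf varied most in both genotypes.

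**Figure D2:**
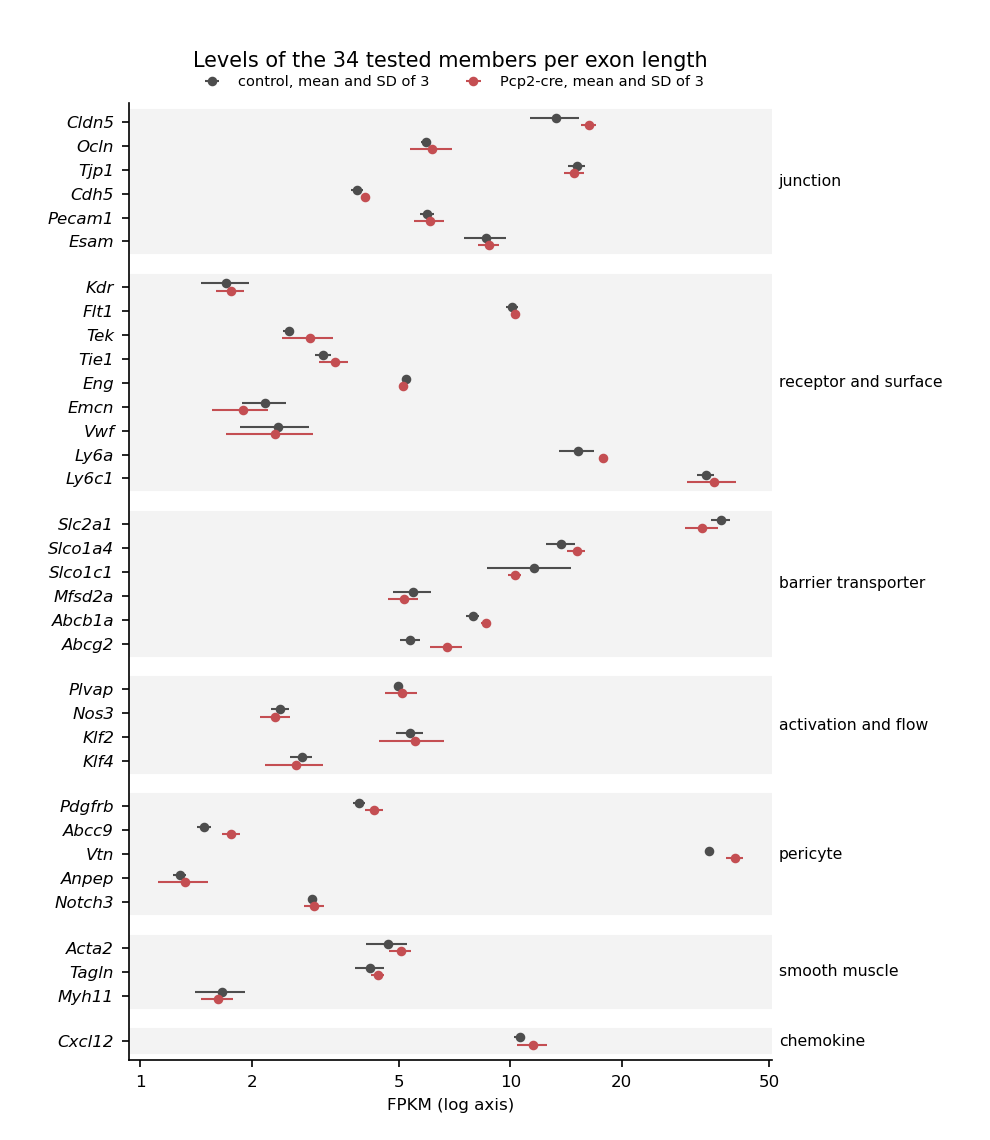
Mean FPKM of each tested vascular gene on a log axis by role, with the SD of 3 mice as a bar, in grey for control and red for Pcp2-cre mice. Slc2a1, Vtn and Ly6c1 lie farthest right, and the genotypes differ far less than the genes do.

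Exons can carry reads of more than 1 gene. In Gencode M39 (GRCm39), exons of 17 of the 36 genes overlap exons of another gene, in each case on the opposite strand, and those of 19 do not. The overlap covers 60.7% of the exon bases of Tagln (with the lncRNA Gm48529), 26.7% for Nos3 (Gm15587), 21.7% for Plvap (Gtpbp3) and 20.8% for Selp (Gm16548). Whether counting used the strand was not stated, so the part of antisense reads in these counts was not tested. Close relatives such as Ly6a and Ly6c1, or Abcb1a and Abcb1b, may share reads, and how reads with several alignments were treated was not stated either.

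The junction genes form the seal between endothelial cells. Cldn5 is the main claudin of brain endothelium, Ocln is another membrane protein of the tight junction, and Tjp1 is the scaffold beneath them, which many other cells also express. Cdh5 is the cadherin of the endothelial adherens junction, while Pecam1 and Esam are adhesion proteins at cell contacts. Cldn5 was counted 160, 142 and 266 times in control and 207, 218 and 184 times in Pcp2-cre mice, for mean levels of 22.5 ± 3.4 and 26.5 ± 1.2 CPM (SD, n = 3 each). In CPM, control mouse 3 reached the Pcp2-cre range, so the groups overlapped. The difference of 0.22 on the log2 scale (standard error 0.1) did not pass edgeR's test (adjusted p = 0.243). Without control mouse 3 it was 0.37 (edgeR adjusted p = 0.0193), with the choroid plexus score as a covariate it was 0.04 (edgeR adjusted p = 0.93), and those were the lowest and highest adjusted p over 16 alternatives. Mean CPM in control mice, then in Pcp2-cre mice, was 26.2 ± 0.589 then 27.1 ± 2.2 for Ocln, 96.6 ± 2.95 then 99.2 ± 3.86 for Tjp1, 17.8 ± 0.61 then 18.9 ± 0.775 for Cdh5 and 18.9 ± 2.33 then 19.4 ± 0.855 for Esam, all with overlap. Pecam1 had 21.7, 23.7 and 22.3 CPM in control, against 21.3, 27.1 and 24.9 CPM in Pcp2-cre mice. These 5 had log2 fold changes between 0.04 for Tjp1 and 0.12 for Pecam1, and their 95% intervals included 0. The median of the 6 junction genes was 0.07, and all 6 were above 0, although Tjp1 and Esam turned to -0.03 and -0.01 under at least 1 alternative. Their summed CPM was 201, 203 and 210 in control mice and 211, 222 and 214 in Pcp2-cre mice, a small offset with no overlap.

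None of the 9 endothelial receptors and surface proteins among the 36 genes passed the test. Kdr is the main signalling receptor for VEGF, and Flt1 binds the same ligand and limits its action. Tek is the angiopoietin receptor, Tie1 is its partner, and Eng is a co-receptor for ligands of the BMP and TGF-beta family. The CPM of Kdr was 12.4, 11.9 and 15.1 in control mice and 12.4, 11.9 and 14.9 in Pcp2-cre mice. Each genotype thus had a low pair and a higher female, with nearly the same values, and the log2 fold change was -0.03 with a 95% interval from -0.30 to 0.24. Flt1 had 82.1, 81.6 and 83.0 CPM in control, against 85.6, 85.0 and 87.1 CPM in Pcp2-cre mice. Both groups were tight and did not overlap, and the difference of 0.06 (95% interval -0.03 to 0.16) had an edgeR adjusted p of 0.552. Emcn, a sialomucin of veins and capillaries, was at 6.03 ± 0.583 CPM in control, against 5.58 ± 0.997 CPM in Pcp2-cre mice (SD, n = 3 each). Vwf, the clotting protein stored in endothelial cells, had 24.5, 19.2 and 30.5 CPM in control, against 18.7, 24.4 and 32.0 CPM in Pcp2-cre mice, with mouse 3 highest in both genotypes. Ly6a and Ly6c1 are lipid-anchored surface proteins of endothelium, and Ly6a had 15.0, 16.1 and 18.4 CPM in control, against 18.6, 19.2 and 19.5 CPM in Pcp2-cre mice. The Ly6a groups nearly touched but did not overlap, and the difference of 0.20 (standard error 0.103) had an edgeR adjusted p of 0.325. Tek, Tie1, Eng and Ly6c1 had log2 fold changes from 0.03 to 0.11, with groups that overlapped. By genotype, control first, their mean CPM was 15.1 ± 1.17 and 16.1 ± 2.78 for Tek, 16.4 ± 1.88 and 17.6 ± 3.01 for Tie1, 20.3 ± 1.5 and 20.7 ± 1.56 for Eng, and 30.5 ± 2.73 and 32.7 ± 1.93 for Ly6c1. The median over the 9 genes was 0.06, and Kdr, Tek, Tie1, Eng and Vwf each had the opposite sign under at least 1 alternative.

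The barrier transporters held all but 1 of the genes with an adjusted p of at most 0.05. Abcg2 (ENSMUSG00000029802, chromosome 6, 58561505 to 58672661 in GRCm39) is a drug efflux pump of the luminal endothelial membrane. It was counted 134, 96 and 176 times in control and 171, 190 and 161 times in Pcp2-cre mice. In CPM these were 16.7, 14.3 and 17.4 against 22.5, 21.9 and 23.8. Every Pcp2-cre mouse was above every control mouse. The means were 16.1 ± 1.65 and 22.8 ± 0.966 CPM (SD, n = 3 each), and the log2 fold change was 0.48 (standard error 0.099, 95% interval 0.272 to 0.685, edgeR adjusted p = 0.00267), just under the threshold of 0.5. The call hung on single libraries, since the log2 fold change was 0.54 without control mouse 3 (edgeR adjusted p = 0.00173) and 0.51 without Pcp2-cre mouse 2 (edgeR adjusted p = 0.0131), and Abcg2 was then called. Over 16 alternatives it ran from 0.28 to 0.54, with adjusted p from 0.000502 to 0.186, and the adjusted p was at most 0.05 in 13 of 16. The exceptions were limma on FPKM with either pseudocount (adjusted p = 0.185 and 0.186) and the choroid plexus covariate in edgeR (0.40, adjusted p = 0.0656). In FPKM the means were 5.37 ± 0.327 and 6.74 ± 0.68.

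Slc2a1 (ENSMUSG00000028645, chromosome 4, 118965908 to 118996365 in GRCm39) is the glucose transporter of the barrier. Its CPM was 141, 141 and 126 in control mice and 122, 121 and 113 in Pcp2-cre mice. Each Pcp2-cre mouse was below each control mouse, and control mouse 3 was the nearest to them. The log2 fold change was -0.19 (standard error 0.048, 95% interval -0.29 to -0.09, edgeR adjusted p = 0.0165), so the difference was precise but well under the threshold for a call. The adjusted p was at most 0.05 in 8 of 16 alternatives and ran from 0.00121 (without control mouse 3, -0.25) to 0.447. It was 0.089 with DESeq2, and it was above 0.05 in edgeR without control mouse 1 (0.0932), control mouse 2 (0.0731), Pcp2-cre mouse 2 (0.0604) or Pcp2-cre mouse 3 (0.124). With the choroid plexus score as a covariate the log2 fold change was -0.11 (edgeR adjusted p = 0.43). Choroid plexus epithelium also makes this transporter.

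The other transporters did not pass. Slco1c1, which carries thyroid hormone and is also made in choroid plexus, had 44.8, 52.1 and 32.8 CPM in control mice and 36.4, 38.3 and 36.1 CPM in Pcp2-cre mice. Its control values followed the choroid plexus markers, with mice 1 and 2 high and mouse 3 low. The log2 fold change was -0.20 (edgeR adjusted p = 0.387), and it was -0.38 without control mouse 3 (edgeR adjusted p = 0.00144) and 0.13 with the choroid plexus covariate (edgeR adjusted p = 0.655), in a range of adjusted p from 0.00144 to 0.862 over 16 alternatives. Slco1a4, an organic anion transporter, had 55.3, 58.7 and 54.2 CPM in control, against 60.1, 60.4 and 61.1 CPM in Pcp2-cre mice. The groups did not overlap, and the difference of 0.12 (standard error 0.058) had an edgeR adjusted p of 0.312. Mfsd2a, a lipid transporter that keeps transcytosis low, was at 14.6 ± 1.85 and 12.6 ± 1.25 CPM (SD, n = 3 each), with overlap and the lowest log2 fold change of the 34 genes at -0.21. Abcb1a, which encodes P-glycoprotein, was at 49.9 ± 1.7 and 52.5 ± 4.03 CPM. The 6 transporters therefore split evenly by sign, with a median of -0.06, and their summed CPM overlapped between genotypes.

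**Figure D3:**
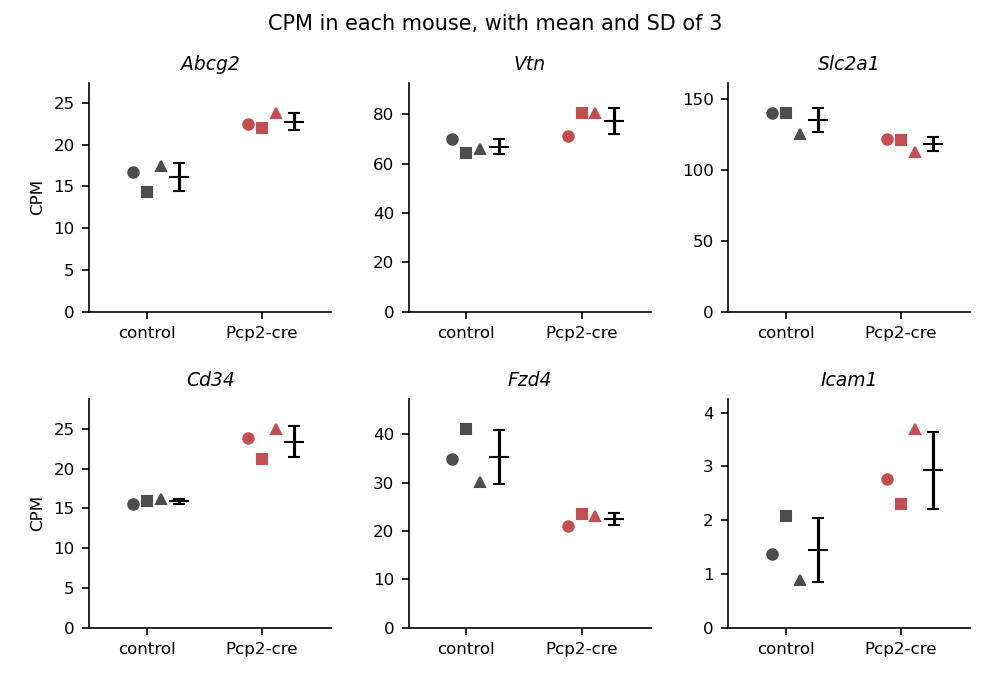
CPM in each mouse for Abcg2, Vtn, Slc2a1, Cd34, Fzd4 and Icam1, with circles for mouse 1, squares for mouse 2, triangles for mouse 3, and a black bar for each group's mean and SD. The groups do not overlap in any panel.

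Promoter windows are shown for Abcg2, Slc2a1 and Vtn, the genes with an adjusted p of at most 0.05, so that what lies at their starts can be read beside the values. Windows of 300 bases around annotated starts came from a RefSeq table (GRCm38.p6) that matched 26 of the 36 genes, with 30 windows. Capitals mark GGAAGT or its reverse complement ACTTCC, the core letters bound by ETS factors such as those of endothelium, and CACCC or its reverse complement GGGTG, the letters bound by KLF factors. Both strands were searched, and in the windows printed no base was in both motifs. All 5 windows are on the forward strand.
Abcg2, chr6:58584283-58584582: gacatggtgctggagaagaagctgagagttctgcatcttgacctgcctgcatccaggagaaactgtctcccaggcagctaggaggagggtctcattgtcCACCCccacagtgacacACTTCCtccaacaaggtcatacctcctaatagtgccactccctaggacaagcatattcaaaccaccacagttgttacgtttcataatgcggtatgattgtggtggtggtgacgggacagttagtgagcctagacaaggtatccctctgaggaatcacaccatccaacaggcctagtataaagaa
Abcg2, chr6:58596422-58596721: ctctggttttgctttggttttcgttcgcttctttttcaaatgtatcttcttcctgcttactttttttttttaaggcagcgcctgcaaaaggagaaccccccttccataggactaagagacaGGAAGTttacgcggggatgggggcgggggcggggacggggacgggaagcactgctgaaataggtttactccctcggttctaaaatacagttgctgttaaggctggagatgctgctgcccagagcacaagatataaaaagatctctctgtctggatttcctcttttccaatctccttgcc
Abcg2, chr6:58640296-58640595: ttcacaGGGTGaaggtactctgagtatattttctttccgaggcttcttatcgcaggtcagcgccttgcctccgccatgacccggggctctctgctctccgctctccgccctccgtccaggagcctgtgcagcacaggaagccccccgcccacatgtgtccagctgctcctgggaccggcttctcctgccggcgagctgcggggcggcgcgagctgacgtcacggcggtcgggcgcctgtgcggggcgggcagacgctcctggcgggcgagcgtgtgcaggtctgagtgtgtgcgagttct
Slc2a1, chr4:119108495-119108794: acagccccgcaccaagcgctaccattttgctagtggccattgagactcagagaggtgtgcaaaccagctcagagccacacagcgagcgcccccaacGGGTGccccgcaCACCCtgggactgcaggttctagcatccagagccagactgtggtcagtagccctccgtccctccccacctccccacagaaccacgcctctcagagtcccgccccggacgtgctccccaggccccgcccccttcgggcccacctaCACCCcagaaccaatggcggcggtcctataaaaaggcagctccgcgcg
Vtn, chr11:78498870-78499169: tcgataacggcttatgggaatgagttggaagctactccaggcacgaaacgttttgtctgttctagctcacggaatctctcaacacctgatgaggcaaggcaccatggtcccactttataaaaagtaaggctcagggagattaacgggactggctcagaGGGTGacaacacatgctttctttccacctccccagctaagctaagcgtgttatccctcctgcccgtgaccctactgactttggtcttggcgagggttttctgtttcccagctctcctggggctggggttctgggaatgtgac
The ETS letters were in 10 of 30 windows of the vascular genes (33.3%, against 23.8% of 32851 windows), and the KLF letters were in 23 of 30 (76.7%, against 57.5%). Among the printed windows, ETS letters occurred in 2 of the 3 Abcg2 windows and in neither of the others. The window of Slc2a1 held 3 KLF matches. A match describes the letters and not a bound site.

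None of the 4 tested activation and flow genes among the 36 passed the test. The selectins Sele and Selp bring leukocytes to the vessel wall when endothelium is activated. No read of Sele was counted in any library, and Selp was counted 0, 1 and 1 times in control and 3, 0 and 0 times in Pcp2-cre mice, so both were at or under the floor of 3 counts and neither was tested. Plvap forms the diaphragms of fenestrated and leaky vessels, and its CPM was 15.7, 11.8 and 11.9 in control mice and 11.9, 11.1 and 12.7 in Pcp2-cre mice. Control mouse 1 was the highest and the other 5 libraries lay close together. Klf2 and Klf4 are transcription factors induced by blood flow, and Nos3 is the endothelial nitric oxide synthase. Klf2 was at 12.4 ± 1.9 CPM in control, against 11.1 ± 2.32 CPM in Pcp2-cre mice (SD, n = 3 each), with wide overlap. Klf4 was at 11.1 ± 1.37 and 10.6 ± 1.42 CPM, and Nos3 at 12.6 ± 1.68 and 13.5 ± 1.04 CPM. The log2 fold changes of the 4 tested genes were -0.15 for Plvap, -0.15 for Klf2, -0.07 for Klf4 and 0.08 for Nos3, with edgeR adjusted p from 0.644 to 0.864. Plvap, Klf2, Klf4 and Nos3 each had the opposite sign under at least 1 alternative.

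All 5 pericyte genes had log2 fold changes above 0, although Notch3 reached -0.04 under 1 or more alternatives. Vtn (ENSMUSG00000017344, chromosome 11, 78388717 to 78393156 in GRCm39) encodes vitronectin, a matrix protein that brain pericytes secrete. Its CPM was 70.1, 64.3 and 66.1 in control mice and 71.4, 80.3 and 80.6 in Pcp2-cre mice. Pcp2-cre mouse 1 was just above the highest control mouse and the other 2 were clearly higher. The means were 66.8 ± 2.97 and 77.5 ± 5.26 CPM (SD, n = 3 each), and the log2 fold change was 0.21 (standard error 0.057, 95% interval 0.09 to 0.33, edgeR adjusted p = 0.0238). The adjusted p was at most 0.05 in 7 of 16 alternatives, in a range from 0.00471 to 0.223. It was 0.223 with DESeq2, 0.0662 and 0.0693 with limma on FPKM, 0.0662 with the choroid plexus covariate (log2 fold change 0.241) and 0.173 with males only. In edgeR it was 0.0688 without control mouse 2, 0.0697 without control mouse 3, 0.16 without Pcp2-cre mouse 2 and 0.138 without Pcp2-cre mouse 3. Leaving out these mice moved its size little, to 0.187, 0.2, 0.181 and 0.182 on the log2 scale. Abcc9, a potassium channel subunit of pericytes, had 14.5, 12.5 and 13.6 CPM in control, against 14.2, 16.6 and 17.2 CPM in Pcp2-cre mice. Its difference of 0.24 (standard error 0.112) did not pass (edgeR adjusted p = 0.266). Pdgfrb, the receptor through which endothelium recruits pericytes, was at 26.5 ± 0.979 and 28.6 ± 1.21 CPM with a log2 fold change of 0.12. Anpep, a membrane peptidase, was at 5.56 ± 0.336 and 6.2 ± 0.852 CPM with a log2 fold change of 0.15, and Notch3, a receptor of mural cells, was at 29.9 ± 2.73 and 30.8 ± 1.68 CPM with 0.03. The summed CPM of the 5 genes was 148, 136 and 143 in control mice and 150, 164 and 163 in Pcp2-cre mice. The groups did not overlap, the means differed by 11.7%, and Vtn contributed the largest share of the difference. In a second list of 12 pericyte genes 8 had a log2 fold change above 0, with a median of 0.076, while the summed CPM was 286.8, 266.1 and 277.5 in control mice and 271.0, 266.9 and 263.5 in Pcp2-cre mice, which overlapped, with means that differed by -3.49%. Ebf1 lowered this sum, with a mean of 68.9 CPM in control, against 51.4 in Pcp2-cre mice.

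Smooth muscle was represented by the contractile genes Acta2, Tagln and Myh11. Acta2 was counted 96, 79 and 105 times in control and 90, 86 and 94 times in Pcp2-cre mice, and in CPM the genotypes interleaved. Tagln was at 10.1 ± 0.985 and 9.91 ± 1.11 CPM, and Myh11 at 14.1 ± 2.79 and 12.6 ± 1.36 CPM (SD, n = 3 each). The log2 fold changes were 0.06 for Acta2, -0.04 for Tagln and -0.16 for Myh11, with edgeR adjusted p of 0.886, 0.931 and 0.616, and each had the opposite sign under at least 1 alternative. Cxcl12, a chemokine made by endothelial and mural cells, had 45.0, 50.3 and 48.9 CPM in control, against 54.7, 50.3 and 51.5 CPM in Pcp2-cre mice. Its log2 fold change was 0.12 (edgeR adjusted p = 0.375). Of its receptors, Cxcr4 was at 1.45 ± 0.354 and 2.21 ± 0.528 CPM and Ackr3 at 7.95 ± 1.04 and 8.24 ± 1.23 CPM (SD, n = 3 each), neither past the test, and this pair was chosen after its values were seen.

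**Figure D4:**
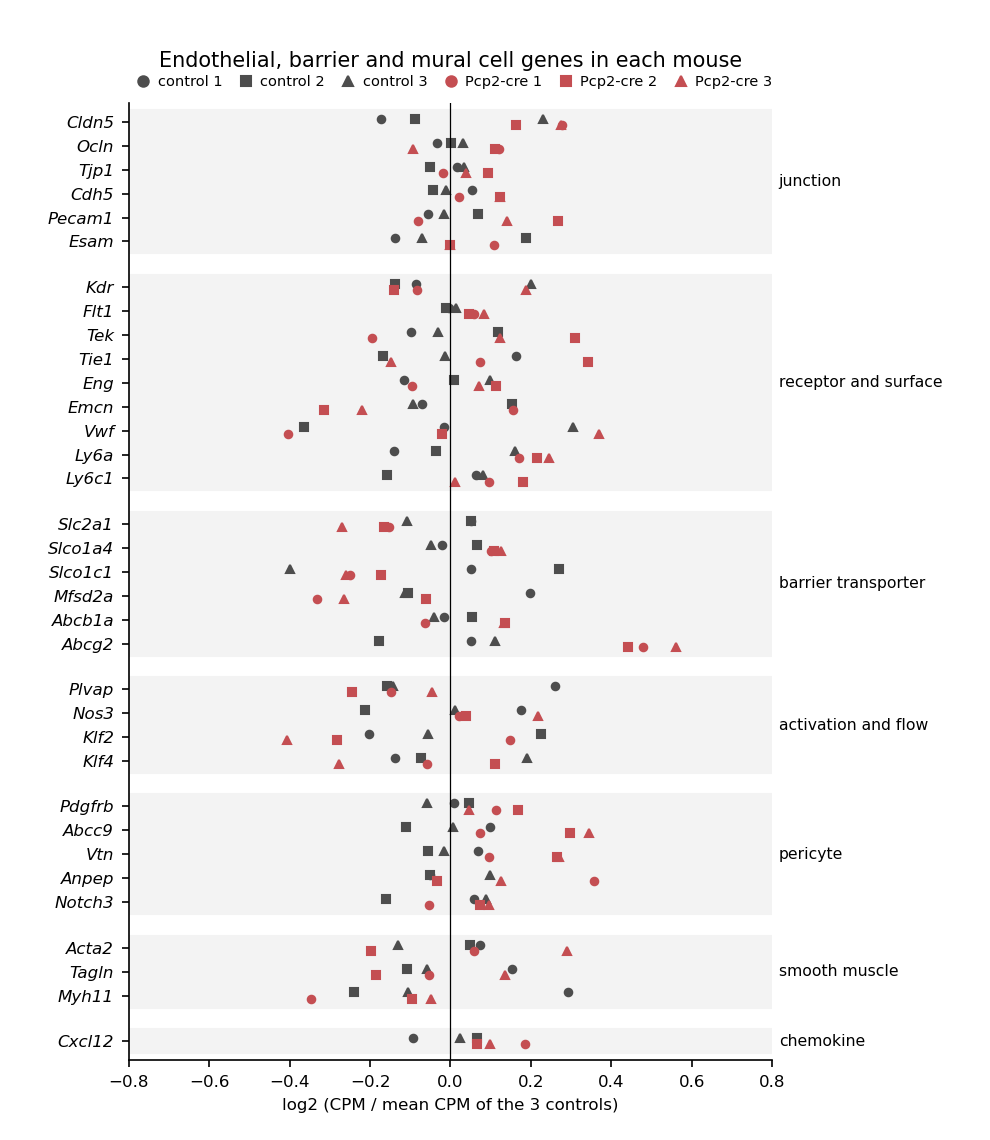
Each vascular gene in each mouse as the log2 ratio of its CPM to the control mean, by role. Most values lie close to 0 in both genotypes, and Abcg2 stands out among the Pcp2-cre mice.

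For each of the 34 genes, the mouse with the highest CPM was tallied. The highest CPM was in control mice 1 to 3 for 5, 3 and 2 genes and in Pcp2-cre mice 1 to 3 for 5, 9 and 10. The lowest CPM was in control mice for 5, 11 and 3 genes and in Pcp2-cre mice for 6, 5 and 4. No share over all tested genes is given beside these tallies, so no lean of the vascular genes is read from them. The summed CPM of all 36 genes was 1031, 1016 and 1014 in control and 1022, 1066 and 1056 in Pcp2-cre mice. The means differed by 2.71%, and Pcp2-cre mouse 1 lay within the control range.

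**Figure D5:**
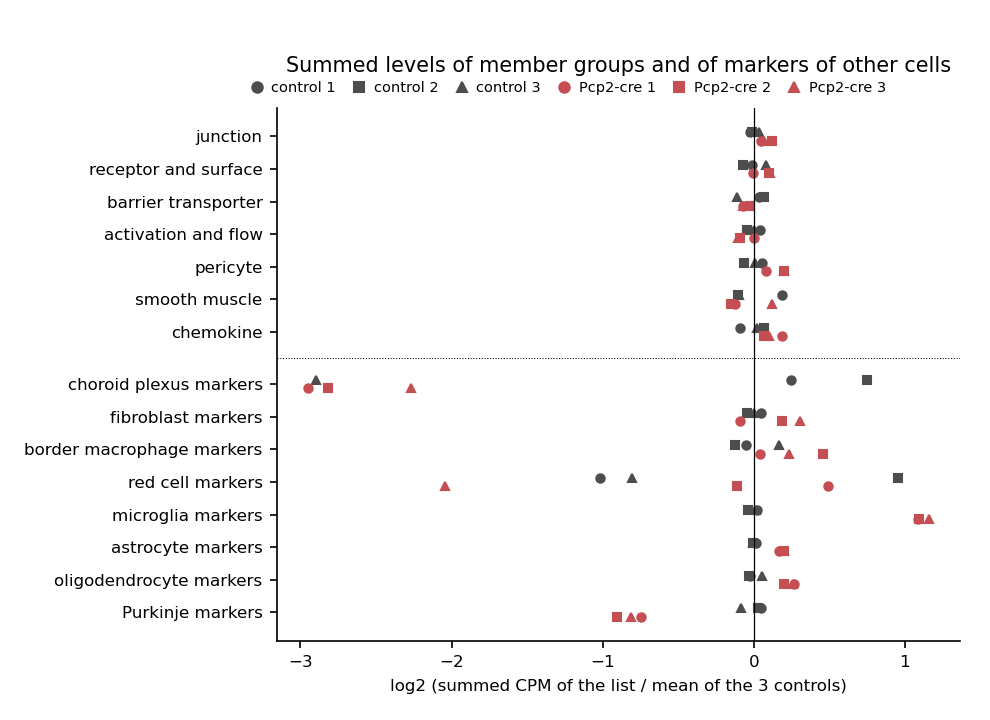
Log2 ratio of the summed CPM of each vascular role, and of markers of other cells, to the control mean in each mouse. The vascular roles stay near 0, while the choroid plexus list is high in control mice 1 and 2 alone.

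Other vascular genes were read from 11 lists with 146 genes, 132 of them tested. By edgeR's test 3 were called higher and 1 lower (3.03%, against 3.17% of all tested genes), and 12 passed when no fold change was required (9.09%, against 7.74%). The median log2 fold change was 0.05. Cd34, a sialomucin of endothelial cells, had 15.6, 15.9 and 16.2 CPM in control mice and 23.8, 21.2 and 25.0 CPM in Pcp2-cre mice. The groups were far apart and tight, and Cd34 rose by 0.55 on the log2 scale (standard error 0.097, edgeR adjusted p = 0.000592). Without Pcp2-cre mouse 3 the value was 0.497, just under the threshold (edgeR adjusted p = 0.00741), and with limma on FPKM the adjusted p was 0.0543 and 0.056, in a range from 2.73e-05 to 0.056 over 16 alternatives. Cd34 is also made by other cells, and its cell of origin was not tested. Fzd4 is the receptor for Norrin and Wnt ligands that maintains the barrier. Its CPM was 34.9, 41.1 and 30.0 in control mice and 21.1, 23.4 and 23.1 in Pcp2-cre mice. Each Pcp2-cre mouse was below each control mouse, of which mouse 3 was the lowest, and Fzd4 fell by 0.63 on the log2 scale (standard error 0.102, edgeR adjusted p = 0.000214). In which cells of the tissue Fzd4 differed was not tested. With the choroid plexus covariate the log2 fold change was -0.42 (edgeR adjusted p = 0.0172), under the threshold for a call, and with limma on FPKM the adjusted p was 0.162 and 0.169, the highest of 16 alternatives that started at 5.82e-11. In the same list of 14 Wnt genes no other gene was called, and the most abundant, Ctnnb1, had a log2 fold change of -0.06.

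The list of leukocyte adhesion and cytokine response genes held the other 2 called genes, among 8 tested of 12. Icam1, the adhesion molecule that leukocyte integrins bind, was counted 11, 14 and 9 times in control and 21, 20 and 25 times in Pcp2-cre mice. Its log2 fold change was 1.05 (standard error 0.325, edgeR adjusted p = 0.0436), and the call was lost in 10 of 15 alternatives, with adjusted p from 0.00876 to 0.483. Its size ran from 0.344 (limma on FPKM with a pseudocount of 1) through 0.566 (males only) and 0.752 (without control mouse 3) to 1.737 (choroid plexus covariate). With mouse number as a replicate block the adjusted p was 0.0649, with DESeq2 0.375, and in edgeR 0.141 without control mouse 1, 0.219 without control mouse 3, 0.113 without Pcp2-cre mouse 1, 0.0687 without Pcp2-cre mouse 2 and 0.231 without Pcp2-cre mouse 3. Timp1, an inhibitor of matrix proteases, was counted 10, 3 and 9 times in control and 18, 21 and 16 times in Pcp2-cre mice. Its log2 fold change was 1.42 (standard error 0.354, edgeR adjusted p = 0.00857), and the call was lost with DESeq2 (adjusted p = 0.155), without Pcp2-cre mouse 2 (edgeR adjusted p = 0.059) and with the choroid plexus covariate (edgeR adjusted p = 0.0761), the adjusted p running from 0.00167 to 0.155 over 15 alternatives. The log2 fold change of Timp1 ran from 0.576 with limma on FPKM (pseudocount of 1) to 1.726 without control mouse 1. Both genes are read from few counts, and other cells make them too. Vcam1, chosen after its values were seen, was at 15.8 ± 2.41 and 17.8 ± 2.17 CPM (SD, n = 3 each) with overlap and did not pass.

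In the remaining lists no gene was called, except Cd34 among the 18 tested receptors and regulators. Of 16 tested ligands, 0 passed edgeR's test and 0 had an unadjusted p under 0.05, and their most abundant gene, Vegfa, was at 124 ± 4.27 and 130 ± 8.1 CPM (SD, n = 3 each). Pdgfb, a ligand of Pdgfrb, had a log2 fold change of -0.03, and Angpt1, a ligand of Tek, was at 15.0 ± 0.931 and 16.4 ± 1.34 CPM, a pair chosen after its values were seen. Of 13 tested transcription factors 12 had a log2 fold change above 0, where 51.3% of all tested genes did. Their median was 0.146, with 0.12 for the most abundant, Hey1, and the median standard error was 0.209. The summed CPM of these factors was 89.8, 88.9 and 89.9 in control, against 100.2, 106.0 and 96.9 in Pcp2-cre mice, and the means differed by 12.9%. Which cells this difference came from was not tested. The sums of the receptor and regulator list (9.15%) and of the leukocyte adhesion list (9.0%) were also higher without overlap, that of the Wnt list was lower without overlap (-2.28%), and those of the other 7 lists overlapped. Of the 14 Wnt genes, however, 9 had a log2 fold change above 0 and 5 had one below 0, with a median of 0.023. The most abundant genes of the other lists were S1pr1 (0.17), Afdn (-0.01), Slc3a2 (0.04), Cavin3 (-0.03), Agrn (0.03), Rgs5 (-0.05) and Myl9 (0.11), each given as a log2 fold change. With an adjusted p of at most 0.05 but a fold change under the threshold, S1pr1, Ets1, Slc16a1 and Slc38a3 were higher and Slc6a6, Lrp8, Ebf1 and Lamb1 lower, with log2 fold changes from -0.46 to 0.39. Ebf1 (-0.424, edgeR adjusted p = 9.55e-05) belongs to the second pericyte list. Over 16 alternatives the adjusted p was at most 0.05 in 16 for Lrp8, 14 for Slc38a3, Slc6a6, Ebf1 and Lamb1, 13 for Slc16a1, 8 for S1pr1 and 4 for Ets1. With the choroid plexus covariate Slc16a1 was called (0.544, edgeR adjusted p = 0.000186), while S1pr1 (edgeR adjusted p = 0.0572) and Ets1 (edgeR adjusted p = 0.131) did not pass, and without control mouse 3 Lamb1 was called (-0.541, edgeR adjusted p = 8.77e-06) and Ets1 did not pass (edgeR adjusted p = 0.105). These genes were named after their values were seen, and neurons and glia express several of them. Cldn1, which the filter removed and which was chosen after its values were seen, was counted 50, 72 and 2 times in control and 3, 2 and 3 times in Pcp2-cre mice. It was thus high in the same 2 libraries as the choroid plexus markers.

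Several marker lists of other cells differed more between the genotypes than the vascular genes did, and their part in the vascular values was not tested. Of 10 Purkinje cell markers 6 were called lower, and the adjusted p of all 10 was 0.05 or less in edgeR. Their summed CPM was 8253, 8127 and 7530 in control and 4744, 4250 and 4547 in Pcp2-cre mice, and Pcp2 was the most abundant in FPKM. Of 10 astrocyte markers 2 were called higher, Gfap with a log2 fold change of 1.94 and Aqp4 with 0.51, and the summed CPM was 3142, 3097 and 3095 against 3489, 3577 and 3580, with Slc1a3 the most abundant. When no fold change was required, 4 passed as higher and 2 as lower, and Slc1a3 was among the lower (-0.221, edgeR adjusted p = 9.95e-05, and from 1.56e-10 to 0.1 over 16 alternatives). Aqp4 is the water channel of astrocyte endfeet on vessels, and its call was lost in 5 of 16 alternatives, all by the fold change: in edgeR without control mouse 2 (0.488) or 3 (0.469), without Pcp2-cre mouse 2 (0.462), with no filter (0.497) and with males only (0.476). Of 10 microglia markers 7 were called higher, with a summed CPM of 115, 111 and 115 against 242, 243 and 255. Among 8 oligodendrocyte markers 0 were called and 6 passed when no fold change was required, with summed CPM of 3721, 3693 and 3925 against 4553, 4332 and 4518 and Mbp the most abundant. Of 15 choroid plexus markers 9 were tested and 7 called lower, while the summed level of control mouse 3 lay among those of the Pcp2-cre mice. Of 12 immediate early genes 11 were tested and 2 called higher, Npas4 at 0.66 and Fos at 0.51, and the summed CPM was 288, 288 and 301 against 356, 377 and 376, with Dusp1 the most abundant. The Npas4 call was lost with limma on FPKM, where the adjusted p was 0.147 and 0.168, in a range from 6.3e-05 to 0.168. The Fos call was lost in 10 of 16 alternatives, and among them its value was under the threshold in edgeR with mouse number as a replicate block (0.497), without control mouse 1 (0.47) or 3 (0.45) and without Pcp2-cre mouse 2 (0.466) or 3 (0.49). Its adjusted p ran from 1.53e-08 to 0.0925.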

How the data were processed

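RNA of whole cerebellum from 3 N153S LSL/LSL and 3 N153S LSL/LSL Pcp2-cre mice was sequenced as polyadenylated RNA. The authors aligned reads to GRCm39 with STAR and deposited raw counts per gene and FPKM per gene; they name featureCounts and StringTie and give no versions. Which tool made which table was inferred from the values. The counts in the deposited table were fitted in edgeR 4.0.16 (R 4.3.3) with filterByExpr, TMM factors and the quasi-likelihood test over 16961 genes, with Benjamini-Hochberg adjustment over all of them. Standard errors and 95% intervals are Wald values of that fit, and that fit was tested on simulated data. CPM was computed on TMM-scaled library totals. With 3 mice in each genotype an exact permutation test cannot go below a two-sided p of 0.1, so none was run.

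The 36 genes, the other vascular lists and the marker lists were chosen with earlier results of these data known. All 36 genes are named. Of the other vascular lists, the called genes are named and, where fewer than 2 were called, the most abundant gene (highest mean FPKM over the 6 libraries), and a name beyond this rule is given as chosen after its values were seen. Marker lists are given by counts and sums, and not all of their called genes are named. Coordinates and exon overlaps are from Gencode M39 (GRCm39), and promoter windows are from a RefSeq table (GRCm38.p6).

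Alternatives were DESeq2 1.42.0, DESeq2 size factors in edgeR, no filter, at least 10 counts in every mouse, mouse number as a replicate block, sex as a covariate, leaving out each mouse, log2 FPKM with a pseudocount of 1 or 0.1 in limma 3.58.1, no fold threshold and a log2 threshold of 1. A choroid plexus score as a covariate, males only, and all alternatives for genes outside the 36 were chosen after seeing the data. The score is the mean log2 CPM of the tested choroid plexus markers. Deviations from the group means correlated across 12059 genes at 0.154, 0.165 and 0.35 between mice of the same number, and at -0.269 to 0.189 between other mice. The 0.189 was between control mouse 1 and Pcp2-cre mouse 2, above the same-number values of mice 1 and 2. These correlations thus do not establish a pairing by number, and the labels give none. Mouse number as a block was an alternative only. Between libraries of 1 genotype the chi-square per gene was 1.38 to 3.62, above sampling noise alone.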

Additional observations from a re-analysis of the deposited data

How the results depend on the processing

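Of all tested genes 537 were called. The number was 1312 with no fold threshold, 236 with a log2 threshold of 1, and 281 and 311 with limma on FPKM with a pseudocount of 1 and 0.1, and it ran from 426 to 632 when 1 mouse was left out. Of the 34 vascular genes 0 were called; there were 3 with no fold threshold, 0 to 1 when 1 mouse was left out (Abcg2 without control mouse 3 or without Pcp2-cre mouse 2), and 1 with males only, again Abcg2, an alternative chosen after seeing the data. The median log2 fold change of 0.06 was 0.031 with limma on FPKM with a pseudocount of 1 and 0.043 with a pseudocount of 0.1, and 0.038 to 0.08 when 1 mouse was left out. With mouse number as a replicate block 548 genes were called, 0 of them vascular members, and the median was 0.066. Over all alternatives for single vascular genes, 499 values kept their sign and were called under neither setting, 42 changed sign without passing the test under either setting, and 3 passed both thresholds, all of them Abcg2. The adjusted p alone crossed 0.05 for Vtn in 9 alternatives, Slc2a1 in 8, Abcg2 in 3, Slco1c1 in 2 and Cldn5 in 1. The causes were not tested. Sex could not be separated from mouse number 3, since each genotype had 1 female. Depth limits genes with few counts: Sele and Selp were at or under the floor of 3 counts, and Icam1 and Timp1 rest on at most 25 counts per mouse.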

Other observations

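Markers of cells around or inside vessels gave these values. The summed CPM of 10 fibroblast markers was 192, 180 and 186 in control and 174, 211 and 230 in Pcp2-cre mice, with 0 called by edgeR's test, 2 at an unadjusted p under 0.05, and Mgp the most abundant in FPKM. Fmod, chosen after its values were seen, had a log2 fold change of 0.44 (edgeR adjusted p = 0.00224), under the threshold for a call. It was called without control mouse 3 (0.516) and without Pcp2-cre mouse 1 (0.502), and the adjusted p ran from 0.000111 to 0.151 over 16 alternatives. Of 7 border macrophage markers 5 were tested, with 0 called and 0 at an unadjusted p under 0.05, and the summed CPM was 12.9, 12.2 and 15.0 against 13.7, 18.4 and 15.7, with Cbr2 the most abundant. Red cell markers, of which 5 of 6 were tested and 0 were called, summed to 16.6, 64.9 and 19.2 CPM in control and 47.3, 31.1 and 8.14 CPM in Pcp2-cre mice, with Hbb-bs the most abundant. Of 8 platelet and leukocyte markers 1 was tested and not called, Ly6g had 0 counts in all 6 libraries, the most abundant was S100a9, and the summed CPM was 3.12, 2.53 and 3.07 against 5.40, 3.93 and 3.26.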
